A study of Rattus norvegicus with 9 samples.

Results

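The 10 genes described here carry the Toll-like receptor signal to the transcription factor NF-kB: the receptors Tlr2 and Tlr4, the co-receptors Cd14 and Ly96, the adaptor Myd88, the NF-kB subunits Rela, Nfkb1 and Nfkb2, and the feedback inhibitors Nfkbia and Tnfaip3. They were picked by name, as the probe sets whose gene symbol in the platform annotation is exactly 1 of these 10, out of 14217 genes with a probe set of their own. Each of the 10 had 1 such probe set, and 9 of the 10 passed the filter on dim probe sets, which asked for a mean log2 signal of at least 2.82. Liver RNA came from 9 Wistar rats of 180 to 220 g, all labelled male, with 3 rats drawn from each group of 12. The groups are named control, model and drug, and the drug is 7-P by the series' title. How the model was made, what 7-P is, whether drug rats were also model rats, the dose, the time and the ages are not given in the sources used here.

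Toll-like receptors sense microbial molecules: Tlr4 with Cd14 and Ly96 binds bacterial lipopolysaccharide (LPS), and Tlr2 senses bacterial lipoproteins. Myd88 links the receptors to a kinase cascade that has the inhibitor Nfkbia destroyed, which lets Rela and its partners enter the nucleus. NF-kB then transcribes its own inhibitors, Nfkbia and Tnfaip3, and its own precursor subunits Nfkb1 and Nfkb2, so that the response limits itself. In the liver the receptors are best known from Kupffer cells, the resident macrophages, which meet gut-derived LPS in portal blood. Activation of NF-kB happens at the protein level and is not measured by these arrays.

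The DNA around the start of these genes was searched for the binding motif of NF-kB. RefSeq's promoter table (build GRCr8) held all of the 10 genes but Ly96, each as 250 bases before and 50 bases after the start. The consensus binding motif of NF-kB, the kB motif of 10 bases, was searched on both strands with overlaps allowed. It was found in 5 of the 9 windows (Tlr2, Tnfaip3, Nfkbia, Nfkb1 and Nfkb2) and in 1400 of all 33469 windows of the same length (4.18%). Those of Tlr4, Cd14, Myd88 and Rela held none. Tlr2 held 2 overlapping matches and Tnfaip3 held 3, where 0.469% of all windows held 2 or more. A match is a run of letters and not a measured binding site. A window of 30 bases around 1 match in each of the 5 genes is shown on the gene's strand, with the matching letters in capitals.
Tlr2, chr2:171504743-171504772, minus strand: aggcccttggGGGAATTCCCatacggagcc
Tnfaip3, chr1:15544027-15544056, minus strand: tcacgtgactGGAAAGTCCCtcggaaatcc
Nfkbia, chr6:78597084-78597113, minus strand: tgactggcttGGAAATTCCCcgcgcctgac
Nfkb1, chr2:226805440-226805469, minus strand: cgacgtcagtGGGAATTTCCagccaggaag
Nfkb2, chr1:255108344-255108373, plus strand: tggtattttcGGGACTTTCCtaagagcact
The Nfkbia and Tnfaip3 matches shown read as the motif on the opposite strand, and the Tlr2 match reads on both. The matches begin 205 bases before the start in Tlr2, 67 in Tnfaip3, 31 in Nfkbia and 20 in Nfkb2, while that of Nfkb1 begins at base 4 of the transcript. Starts are those of the transcript RefSeq's table uses, and in 4 of the 5 genes (all but Tnfaip3) the match lies inside the span annotated for the gene.

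Some arrays stood apart from the rest. Before normalization the trimmed mean signal of the arrays ranged from 33.6 to 81.1. All rats were labelled male, and 7 of the 9 arrays went against that label: control 1 and 3, all 3 model arrays and drug 1 and 2. In these 7, Xist was at a log2 signal of 8.06 to 10.9 and the Y-linked Eif2s3y at 2.53 or less. Control 2 and drug 3 matched the label, with Xist at 2.65 and 3.05 and Eif2s3y at 6.99 and 7.17. The model group thus held no array that matched it. The ratio of 3' to 5' signal of the Gapdh control probe sets, which is higher where less of the 5' end is measured, was 1.52 to 3.14 in control, 4.09 to 12.7 in model and 1.31 to 9.20 in drug livers. The same ratio of beta-actin was 4.2 to 8.4 in control, 7.3 to 12.8 in model and 4.0 to 11.5 in drug livers. By beta-actin the control and model arrays thus overlapped. Both ratios were lowest in control 1 and drug 1. For the larger differences, values are also given leaving out either of these pairs of arrays or a single array, or with the Gapdh ratio as a term in the fit. Hepatocyte markers were bright on all arrays: 7 of 8 had a probe set and passed the filter, with a summed signal of 31100 to 31600 in control, 27100 to 34500 in model and 28200 to 32100 in drug livers.

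Values below are log2 signals after quantile normalization, and a difference of 1 is a doubling. They compare the same probe set between arrays. The brightness of different probe sets does not rank the genes by abundance. Fewer cells of a type and less RNA per cell cannot be told apart in whole liver. The labels name separate rats, so the spread includes that between animals, and 3 arrays in a group limit the precision.

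**Figure D1:**
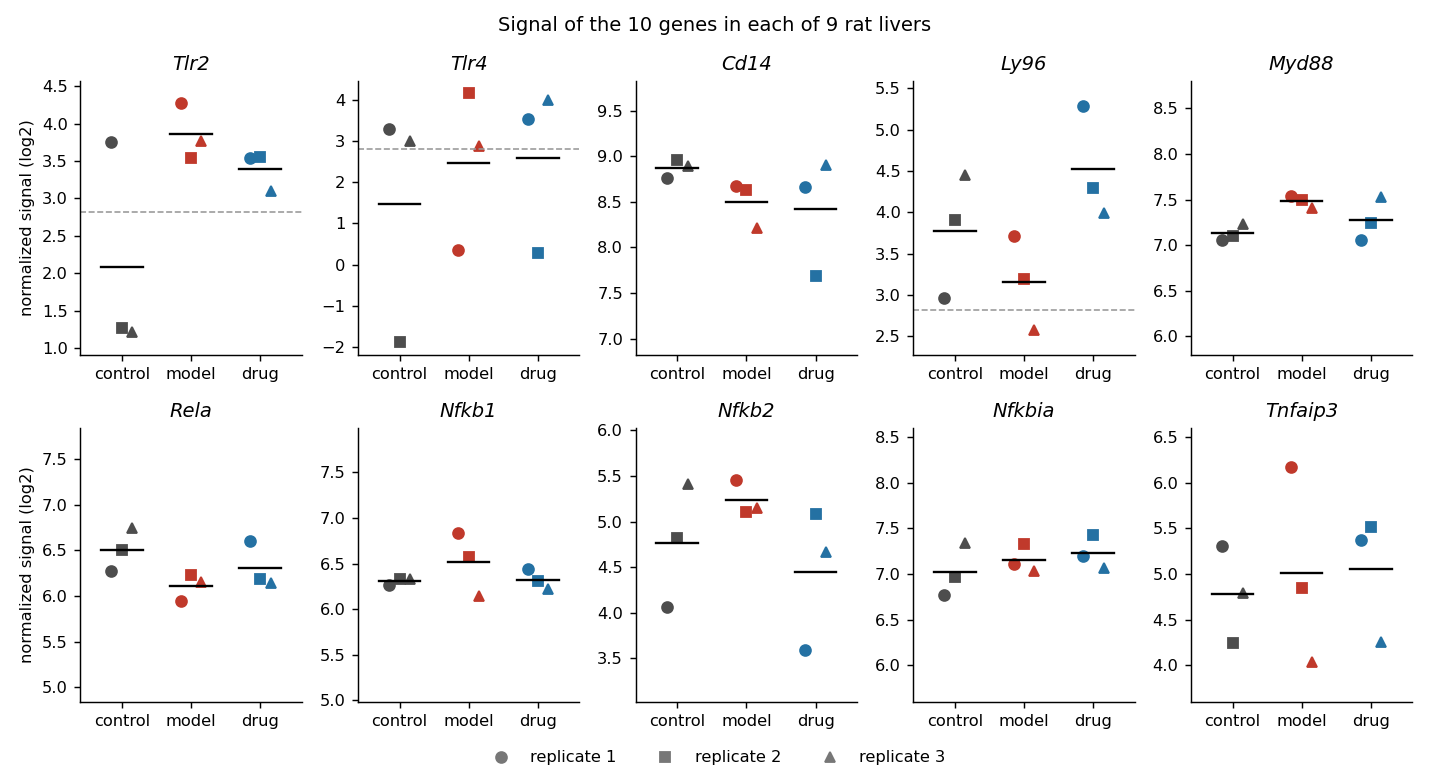
Normalized log2 signal (vertical axis, a separate range in each panel) of the 10 genes in each of the 9 livers, by group, with the mean as a bar and the filter level of 2.82 dashed. Tlr2 was low in control 2 and 3 only, Tlr4 spread widely in every group, and Myd88 had the narrowest range, 7.06 to 7.54.

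None of the 9 genes tested passed in any of the 3 comparisons. In limma, fitted over all 18625 probe sets with Benjamini-Hochberg adjustment, 0 probe sets (0%) passed an adjusted p under 0.05 in model against control, drug against model or drug against control, or in the F test of any difference between the 3 groups. At an unadjusted p under 0.05 there was 1 of the 9 in model against control (Tlr2, with 12.1% of all probe sets), 1 of the 9 in drug against model (Ly96, with 3.28%) and 0 of the 9 in drug against control (7.22%). In model against control 6 of the 9 were higher and 3 lower, with a median of 0.21 beside 0.02 for all probe sets. In drug against model 4 were higher and 5 lower, with a median of -0.08 beside -0.02 for all probe sets. In drug against control the median was 0.14 beside -0.02. The 3 comparisons share their arrays in pairs.

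Groups without overlap occurred for 3 of the 9 genes in model against control, with 22.6% of all probe sets. These were Myd88, with every model array above every control array, and Cd14 and Rela, with every model array below. Drug against model had 2 of 9 (8.05% of all probe sets), Ly96 with every drug array above and Nfkb2 with every drug array below. In drug against control there were 0 of 9 (12.5%). Groups of 2 arrays separate more often, for all probe sets as for these genes. Without control 1 the first count was 5 (30.7% of all probe sets) and without control 3 also 5 (33.5%). The last was 1 without control 1 (21.9%), and 2 without control 3 (21.4%), drug 1 (43.0%) or drug 3 (18.3%). With 3 arrays against 3, a two-sided exact permutation test cannot give a p under 0.1, and all 5 pairs of groups without overlap had that p.

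Tlr2, the receptor for bacterial lipoproteins (probe set 1392280_at, chr2:171499189-171504831 in GRCr8), had the largest difference of the 9. Its log2 signal was 3.76, 1.26 and 1.21 in control 1, 2 and 3. It was 4.27, 3.54 and 3.77 in model livers and 3.54, 3.55 and 3.10 in drug livers. Control 2 and control 3 lay well below the other 7 arrays, and control 1 lay among the model arrays, so the groups overlapped. The deposited signals of those 2 arrays were 1.58 and 4.11, near background, so the size of the difference is not exact. The control mean lay under the filter level of 2.82, and Tlr2 passed the filter on its mean over all 9 arrays through the model and drug arrays, so it was tested only because it was higher there. The control mean was 2.08 ± 1.46, the model mean 3.86 ± 0.371 and the drug mean 3.40 ± 0.256 (SD, n = 3).

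The difference of Tlr2 was 1.78 (SE 0.694, 95% interval 0.23 to 3.32) in model against control, a 3.43-fold difference, with a limma unadjusted p of 0.0281 and an adjusted p of 0.397. In drug against control it was 1.32 (SE 0.694, adjusted p = 0.698), and 2.16 without control 1. Drug against model gave -0.46 (95% interval -2.01 to 1.09), and -0.26 without model 1. Leaving out control 1 and drug 1 gave 2.62 in model against control, leaving out control 2 and drug 3 gave 1.37, and the Gapdh term gave 2.42. The adjusted p of these was 0.241, 0.627 and 0.544, and it ranged from 0.187 to 0.759 over all 20 alternatives that could be run for Tlr2. The direction was the same in all 20.

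Markers of the cells known to carry Tlr2 were set beside it. Of 14 Kupffer cell and macrophage markers, 12 had a single-gene probe set and passed the filter, and in model against control 9 of the 12 were higher, with a median of 0.80. Their summed normalized signal was 1100 to 2040 in control, 2080 to 3630 in model and 1720 to 2960 in drug livers. By the mean log2 signal of the same markers, control and model met, with control 3 and model 3 both at 6.82. Control 1, which was high in Tlr2, had a macrophage sum of 1469, between those of control 2 (1100) and control 3 (2040). Of 9 neutrophil markers 6 had a probe set and 4 passed the filter, with Cxcr2 and Camp below it. All 4 were higher in the model group, with sums of 139 to 330 in control, 455 to 2080 in model and 161 to 1480 in drug livers. No marker of these lists was listed at 0. The part of cell numbers in the Tlr2 difference was not tested.

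**Figure D2:**
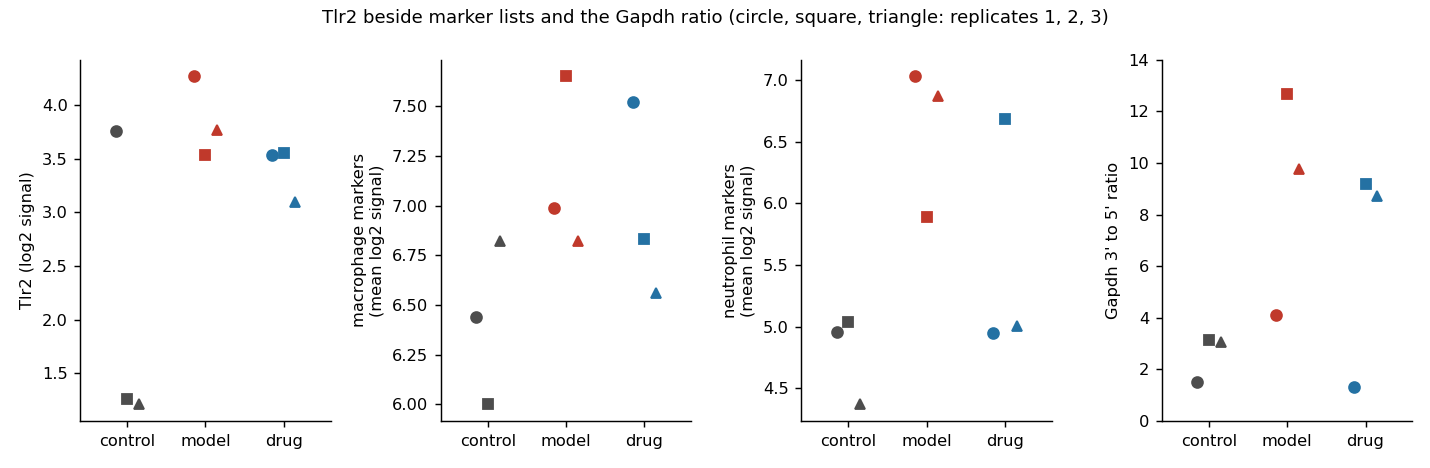
Tlr2 (log2 signal), the mean log2 signal of 12 macrophage and of 4 neutrophil markers, and the Gapdh 3' to 5' signal ratio in each liver, by group. Macrophage markers were highest in model 2 (7.65) and drug 1 (7.52) and lowest in control 2 (6.0). Tlr2 in model 2 was 3.54, the lowest of the model arrays. Neutrophil markers were highest in model 1 (7.03), which also had the highest Tlr2 (4.27). They were alike in control 1 (4.96) and control 2 (5.04), where Tlr2 was 3.76 and 1.26.

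Tlr4, the LPS receptor (1387982_at, chr5:85161247-85174882), lay under the filter, at the 29.7th percentile of mean signal, and was not tested. Its log2 signal was 3.29, -1.89 and 3.0 in control, 0.36, 4.16 and 2.87 in model and 3.53, 0.27 and 3.99 in drug livers. Each group held 1 low array (control 2, model 1 and drug 2), with deposited signals of 0.188, 1.14 and 1.0 against 6.87 to 15 in the other 6. The means were 1.47 ± 2.91, 2.46 ± 1.93 and 2.597 ± 2.02 (SD, n = 3), so the spread within each group was larger than any difference between them. At this signal the means are given as levels only.

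Cd14 hands LPS to Tlr4 and was the brightest probe set of the 10 (1368490_at, chr18:28609558-28611409), at the 96.5th percentile. It stood at 8.76, 8.96 and 8.89 in control, 8.67, 8.63 and 8.21 in model and 8.66, 7.69 and 8.90 in drug livers. Every model array lay just below every control array, and drug 2 was the lowest of all 9. The control values were close together (8.87 ± 0.101, SD, n = 3) and the drug values were not (8.42 ± 0.640). The difference was -0.37 (SE 0.309, 95% interval -1.06 to 0.32) in model against control, with a limma adjusted p of 0.604. It was -0.45 (SE 0.309, adjusted p = 0.735) in drug against control and -0.08 in drug against model. Drug against control rested on drug 2, without which it was -0.09, and model against control was -0.22 without model 3. Relative to the median of all probe sets, model against control was -0.39 with quantile normalization and -0.73 with median centring, a trimmed mean or no normalization. Median centring, a trimmed mean and no normalization differ only by a constant for each array. For every gene, here and below, they therefore give the same relative value by construction and count as a single setting. The Gapdh term gave -0.19.

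Ly96, known as MD-2, is the part of the receptor complex that binds LPS (1382277_at, chr5:7365536-7397864). Its signal was 2.96, 3.91 and 4.45 in control, 3.71, 3.19 and 2.58 in model and 5.29, 4.29 and 3.99 in drug livers. The drug arrays all lay above the model arrays, while the control arrays overlapped both. Drug 1, with the lowest Gapdh ratio of all arrays, was the highest. The difference in drug against model was 1.36 (SE 0.520, 95% interval 0.20 to 2.52), or 2.57-fold, with a limma unadjusted p of 0.0256 and an adjusted p of 0.998. In model against control it was -0.61 (SE 0.520), and -1.02 without control 1, -0.27 without control 3, -0.32 without model 3 and -0.15 with the Gapdh term. In drug against control it was 0.75 (SE 0.520), and 0.34 without control 1 and 0.37 without drug 1. Without drug 1 the drug against model difference was 0.98 (unadjusted p = 0.107 in limma), without control 1 and drug 1 it was 0.98, with the Gapdh term 1.16 and without control 2 and drug 3 1.63. The adjusted p was at least 0.815 in all 20 alternatives.

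Among 13933 probe sets of other single genes above the filter, those whose signal over the 9 arrays was most like that of Cd14 were Slc38a5 (Pearson r = 0.954), Zfp597 (0.950) and Ccdc127 (0.949). For Tlr4, whose order of arrays is uncertain at its low signal, they were Cst7 (0.956), Cnot10 (0.938) and Ranbp1 (0.935) among 13934. None of the 10 genes was among them. These are the highest of many correlations over 9 arrays that also share depth and RNA quality, and they are given as a description.

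Myd88, the adaptor of both receptors (1374468_at, chr8:127952161-127956230), had the narrowest range of the 10 genes over the 9 arrays. It was at 7.06, 7.10 and 7.23 in control, 7.54, 7.50 and 7.41 in model and 7.06, 7.24 and 7.53 in drug livers. Every model array was above every control array, and the drug arrays ran from the level of the lowest control to just under that of the highest model array. The difference was 0.35 (SE 0.212, 95% interval -0.12 to 0.82) in model against control, 1.28-fold, with a limma adjusted p of 0.495. In drug against model it was -0.21 (SE 0.212, adjusted p = 0.998). Relative to the median of all probe sets, model against control was 0.33 with quantile normalization and 0.19 with median centring, a trimmed mean or no normalization. With no normalization the difference itself was -0.21, where that median was -0.40. The Gapdh term gave 0.21.

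Rela, the subunit that activates transcription (1372853_at, chr1:212354336-212364815), went the other way. It was at 6.27, 6.50 and 6.74 in control, 5.94, 6.23 and 6.15 in model and 6.60, 6.19 and 6.14 in drug livers. The gap between the lowest control and the highest model array was small. The difference was -0.40 (SE 0.243, 95% interval -0.94 to 0.14) in model against control, with a limma adjusted p of 0.499, and 0.20 (SE 0.243) in drug against model, which was 0.06 without drug 1. Model against control stayed below 0 in all 21 alternatives run, from -0.85 to -0.28.

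Nfkb1, whose product is cut to the p50 subunit (1370968_at, chr2:226689745-226805897), was at 6.26, 6.33 and 6.33 in control livers, 6.31 ± 0.0380 (SD, n = 3). In model livers it was at 6.83, 6.57 and 6.14, and in drug livers at 6.44, 6.31 and 6.22. Model 1 and model 2 lay above all other arrays and model 3 below them all. The difference was 0.21 (SE 0.241, 95% interval -0.33 to 0.74) in model against control, with a limma adjusted p of 0.714, and 0.02 (SE 0.241) in drug against control. With no normalization these were -0.24 and -0.30, above the medians of all probe sets of -0.40 and -0.36. Model against control was 0.05 without model 1 and 0.39 without model 3.

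Nfkb2, the precursor of the p52 subunit (1375989_a_at, chr1:255106010-255114649), was at 4.06, 4.82 and 5.41 in control, 5.46, 5.10 and 5.15 in model and 3.59, 5.08 and 4.67 in drug livers. All drug arrays lay below all model arrays, narrowly at the nearest pair, drug 2 (5.08) and model 2 (5.10). Drug 1 and control 1 were the lowest of the 9. The difference in drug against model was -0.79 (SE 0.444, 95% interval -1.78 to 0.20), with a limma unadjusted p of 0.105 and an adjusted p of 0.998. Without control 1 and drug 1 it was -0.36, and without drug 1 alone also -0.36. In model against control it was 0.47 (SE 0.444), 0.12 without control 1, and -0.17 with the Gapdh term.

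Nfkbia, the inhibitor IkB-alpha (1389538_at, chr6:78593844-78597307), varied little. Its signal was 6.77, 6.97 and 7.34 in control, 7.11, 7.33 and 7.03 in model and 7.20, 7.43 and 7.07 in drug livers, and the 3 groups overlapped. The differences were 0.13 (SE 0.236, 95% interval -0.40 to 0.65) in model against control, 0.08 (95% interval -0.45 to 0.60) in drug against model and 0.21 (95% interval -0.32 to 0.73) in drug against control. Their limma adjusted p was 0.82, 0.998 and 0.817. Fold differences of 2, which are 1 on the log2 scale, lay outside each of these intervals. Model against control was 0 relative to the median of all probe sets with median centring, a trimmed mean or no normalization, and 0.11 with quantile normalization. Its most similar genes over the 9 arrays were Bex4 (r = 0.929), Cbl (0.926) and Phf2 (0.905).

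Tnfaip3, the ubiquitin-editing enzyme A20 (1385641_at, chr1:15528921-15543993), varied within groups more than between them. It was at 5.31, 4.24 and 4.79 in control, 6.17, 4.85 and 4.03 in model and 5.37, 5.52 and 4.26 in drug livers. Model 1 was the highest and model 3 the lowest of all 9 arrays. The differences were 0.24 (SE 0.554, 95% interval -1.0 to 1.47) in model against control and 0.03 (SE 0.554, 95% interval -1.20 to 1.27) in drug against model, with limma adjusted p of 0.865 and 0.998. Without model 1 the first was -0.34, without control 2 it was -0.03, and with the Gapdh term 0.92.

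**Figure D3:**
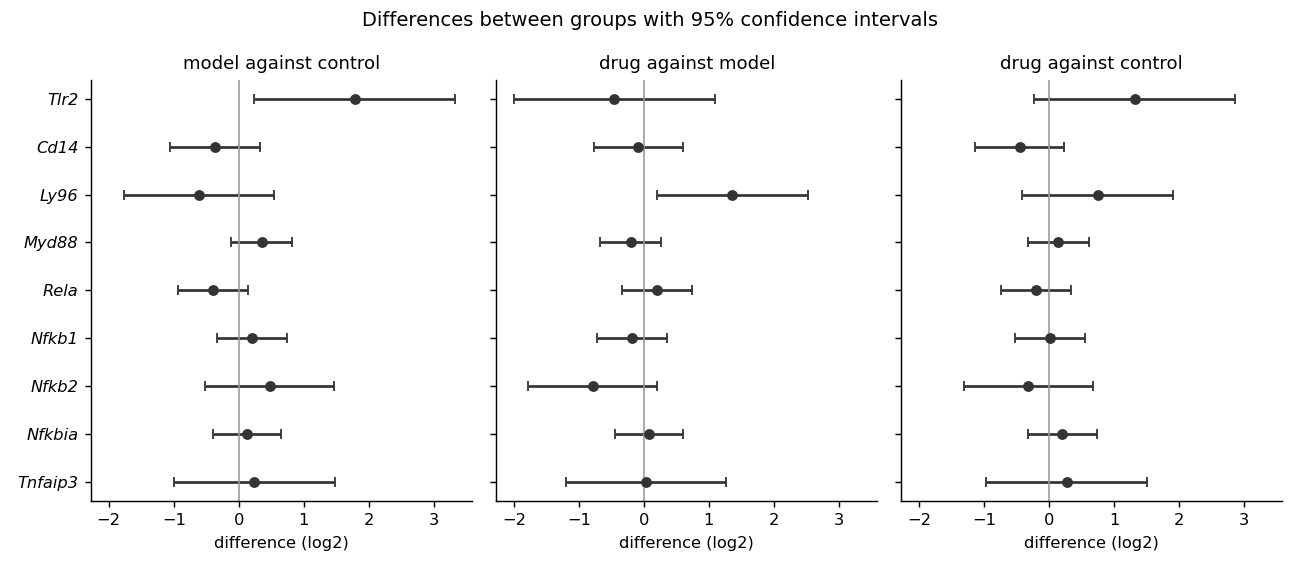
Log2 difference of the 9 genes tested in the 3 comparisons, with the 95% confidence interval of the limma fit (not adjusted for the number of tests). The interval of Tlr2 in model against control (0.23 to 3.32) and that of Ly96 in drug against model (0.20 to 2.52) lay above 0, and the others held 0.

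The genes were also set side by side by whether their promoter window held the kB motif. In model against control the 5 genes that held it ran from 0.13 (Nfkbia) through 0.21 (Nfkb1), 0.24 (Tnfaip3) and 0.47 (Nfkb2) to 1.78 (Tlr2), and 0 of the 5 passed. The 3 tested genes whose window held none were at -0.40 (Rela), -0.37 (Cd14) and 0.35 (Myd88). Apart from that of Tlr2, the confidence intervals of all these differences held 0. The control mean of Tlr2 lay under the filter level, and Tlr2 was tested only because it was higher in model and drug livers. Whether genes with and without the motif differed was not tested. With no normalization, which put the median of all probe sets at -0.40, Nfkbia, Nfkb1 and Tnfaip3 were at -0.40, -0.24 and -0.10, so that Nfkbia lay at that median and the other two above it. The Gapdh term turned Nfkb2 to -0.17.

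The rest of the pathway was read from 4 lists, in which 0 genes passed limma's adjusted p in any comparison. Of 14 other Toll-like receptors and LPS handling genes 7 could be tested. In model against control 6 of them were higher and 1 lower, with a median of 0.70. Tlr8, counted as higher, had a control mean of 2.225, under the filter level. It passed the filter through its model (3.505) and drug (3.77) means, so its count as higher is not independent of the filter. Of 24 adaptors and kinases 19 could be tested, 15 higher and 4 lower, with a median of 0.26. Of 19 other NF-kB subunits and inhibitors 12 could be tested, 7 higher and 5 lower, with a median of 0.26. Of 37 NF-kB target genes 21 could be tested, 14 higher and 7 lower, with a median of 0.46. Il1rn, counted as lower, went the other way from Tlr8. Its model (2.784) and drug (2.542) means lay under the filter level, and it passed through its control mean (3.248). Over all probe sets 51.1% were higher. In drug against model the medians were -0.28, -0.16, -0.17 and -0.24, where 47.9% of all probe sets were higher, and the model arrays enter both comparisons. Among the target genes, Ccl3 and Lcn2 had drug means (2.315 and 2.693) under the filter level. They passed through their control and model means, so their lower place in drug livers is not independent of the filter. In drug against control the medians of the lists were 0.45, 0.28, -0.09 and 0.14. The medians of the marker lists in model against control were 0.80 for macrophages, 2.13 for neutrophils, 0.54 for endothelium and 0.63 for lymphocytes. Those of stellate cells and hepatocytes were -0.25 and -0.09. The Gapdh ratio was 4.09 to 12.7 in model against 1.52 to 3.14 in control livers, while the beta-actin ratios of these groups overlapped. Their part in the list values was not tested.

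Within the lists, the genes named are the 2 with the smallest unadjusted p of each in model against control. Ly86, the MD-1 partner of the receptor Cd180 and a relative of Ly96, was at 5.10, 4.98 and 5.40 in control, 5.63, 6.74 and 6.24 in model and 6.20, 5.68 and 5.62 in drug livers. Control arrays lay below all others, and the difference in model against control was 1.04 (SE 0.323, limma adjusted p = 0.384). Of all probe sets, 6.05% had every drug array above every control array. Ly86 was chosen by a comparison that shares these control arrays, so its place below the drug arrays is not independent of the choice. Unc93b1, which brings nucleic-acid-sensing Toll-like receptors to endosomes, was higher by 0.70 (SE 0.251), and by 0.40 with the Gapdh term. The kinases that mark Nfkbia for destruction, Ikbkb and Chuk, were higher by 0.80 (SE 0.326) and 0.83 (SE 0.362). With the Gapdh term these were 0.52 and 0.19 (limma unadjusted p = 0.189 and 0.534), and Chuk was at 0.54 without control 1. In all 4 the model arrays lay above the control arrays without overlap, as did those of 11.8% of all probe sets. The 4 were chosen by their p in this same comparison, so the separation adds no support. Their limma adjusted p was between 0.384 and 0.41.

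Nfkbiz, an inducible nuclear IkB protein, stood at 5.71, 5.54 and 4.57 in control, 7.34, 6.92 and 6.89 in model and 6.46, 7.07 and 6.75 in drug livers. All model and drug arrays were above all control arrays, unlike those of its relative Nfkbia. Of all probe sets, 11.8% were all higher in model against control and 6.05% in drug against control. Nfkbiz was chosen by its p in model against control, so its separation there adds no support. Drug against control shares the control arrays, so its separation there is not independent of the choice either. The difference was 1.78 (SE 0.335) in model against control, with a limma adjusted p of 0.373, and 1.49 (SE 0.335, adjusted p = 0.676) in drug against control. Sigirr, an inhibitory member of the interleukin-1 and Toll-like receptor family, was at -0.86 (SE 0.378) in model against control, and its groups overlapped. It was at -0.51 without model 2, -0.56 without control 2 and -0.54 with the Gapdh term.

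Il1b, the cytokine interleukin-1 beta, was at 4.8, 3.81 and 4.46 in control, 5.81, 6.56 and 5.70 in model and 5.37, 5.46 and 5.61 in drug livers, with 3 separate levels. Model was above control by 1.67 (SE 0.335, limma adjusted p = 0.373) and drug stood at -0.54 (SE 0.335, adjusted p = 0.998) against model. Birc3, an inhibitor of apoptosis, was at 4.14, 4.75 and 4.63 in control, 5.90, 5.45 and 5.44 in model and 4.82, 5.07 and 5.07 in drug livers, in the same order. Its difference was 1.09 (SE 0.274, limma adjusted p = 0.384) in model against control and -0.61 (SE 0.274, adjusted p = 0.998) in drug against model. Il1b and Birc3 were also chosen by their p in model against control, so their separation there adds no support. The same model arrays enter drug against model, and the same control arrays enter drug against control. Separation in those comparisons is thus not independent of the choice either. The drug arrays lay below the model arrays without overlap in 4.7% of all probe sets, and above the control arrays in 6.05%. The model arrays were higher than the control arrays without overlap in 11.8%. The share of probe sets with all 3 groups in this order was not counted, so how common the order is remains unknown. The chemokine Cxcl1, chosen after its values were seen, had the largest difference of the 4 lists, 2.72 (SE 0.874, limma adjusted p = 0.384).

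**Figure D4:**
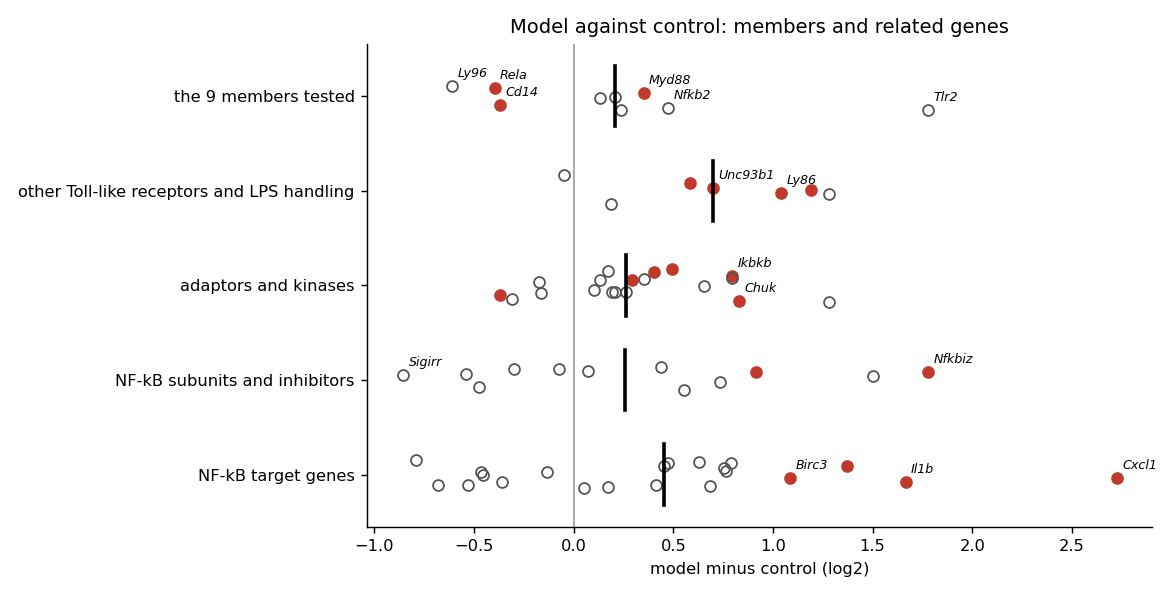
Log2 difference in model against control of the 9 genes tested and of the genes of 4 pathway lists (vertical scatter within a row has no meaning), with the median as a bar. Filled points are genes whose model and control arrays do not overlap. The row of the 9 genes has its median at 0.21 and the target genes at 0.46, with Cxcl1 farthest to the right.

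**Figure D5:**
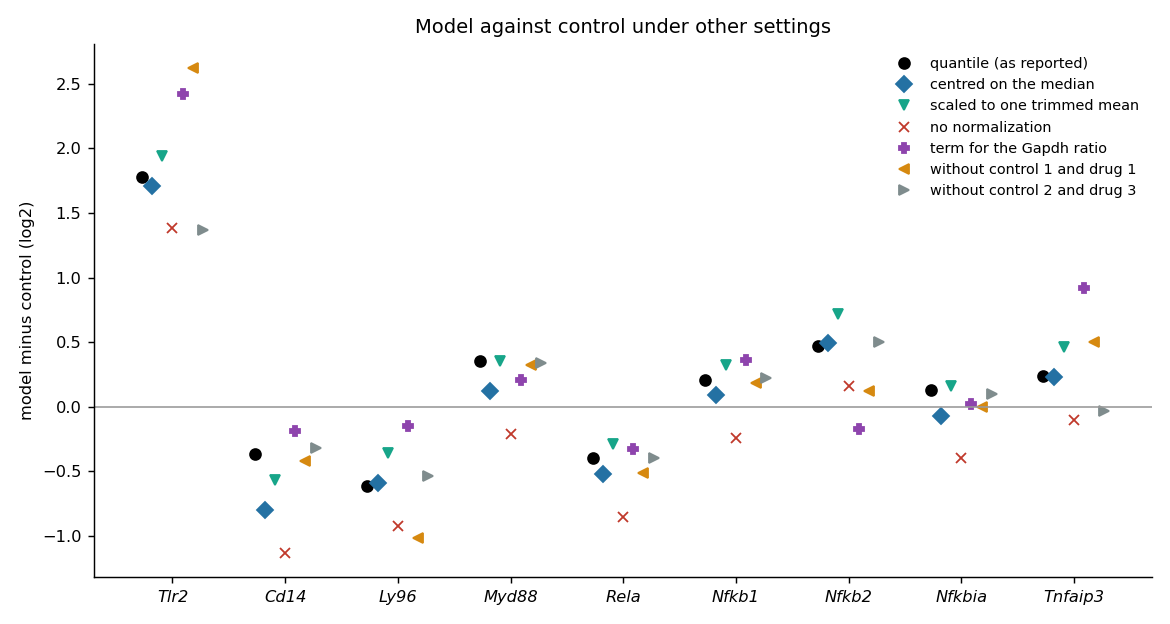
Log2 difference of the 9 genes in model against control under quantile normalization and 6 other settings. Tlr2 lay above 0 and Cd14, Ly96 and Rela below 0 in all 7, while Myd88, Nfkb1, Nfkb2, Nfkbia and Tnfaip3 each had at least 1 setting at or below 0. With no normalization the median of all probe sets was itself at -0.40.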

How the data were processed

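RNA of 9 rat livers was measured on a 1-colour Affymetrix array, with biotin labelling per the labels' protocols. The authors deposited 1 linear intensity for each probe set, made with GCOS 1.2 per the submitters' processing notes; its settings are not given in the sources used here, and detection calls were not used here. Because the arrays were not on 1 scale, log2 intensities of 31042 probe sets (31099 less 57 controls) were quantile normalized. This removes any difference in total RNA and makes all changes relative. Over the 18625 probe sets with a mean at or above the 40th percentile, limma 3.58.1 in R 4.3.3 fitted a term for each group to all 9 arrays, with an intensity trend, two-sided, adjusted by Benjamini-Hochberg over all of them. The fit was tested on simulated data.

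Symbols came from the platform annotation, and all 10 genes matched the rat gene table by identifier. A list gene with several probe sets was represented by the brightest. The place of a probe set in its transcript was not used here. The members, lists, settings and tests were written down with earlier results of these data known. All 10 members were named, and from each pathway list the 2 genes with the smallest unadjusted p in model against control; for Tlr4, Cd14 and Nfkbia also the 3 most correlated genes. Of the marker lists, 6 of 7 endothelial genes were tested, with a median of 0.54 in model against control, 6 of 8 lymphocyte genes (0.63) and 7 of 7 stellate cell genes (-0.25). Labels give the same replicate numbers to the groups, but they name separate rats, so the arrays were not paired. Same-numbered arrays deviated together by a correlation from -0.01 to 0.48, which does not settle whether they share a source of variation. With a replicate block, 3633 probe sets had a limma unadjusted p under 0.05 in model against control, and 2245 without it. No arrays were duplicates (highest r = 0.878).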

Additional observations from a re-analysis of the deposited data

How the results depend on the processing

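Counts of probe sets past the adjusted p in limma were 0 in most settings. In model against control there was 1 with no normalization and 1 without control 1 and drug 1, and there were 3 with the replicate block, which moved Tlr2 only to an adjusted p of 0.187. In drug against model there was 1 with only the groups compared and 1 without control 1 and drug 1. The F test gave 1 with no normalization and 1 without control 1 and drug 1. Leaving out single arrays gave 0 to 1 in each of these. None of these was 1 of the 9 genes tested.

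Members without overlap numbered 5 in model against control without control 1 and drug 1 (30.7% of all probe sets), and 3 to 5 with single arrays left out (22.6% to 43.3%). In drug against model there was 1 with a trimmed mean (7.84%) or the 60th percentile filter (7.86%), which drops Tlr2 and Ly96. In drug against control there were 2 with a trimmed mean (11.8%), 4 without control 1 and drug 1 (52.5%), and 0 to 2 with single arrays left out (12.5% to 43.0%). Leaving out control 2 and drug 3 gave 2 (26.3%).

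Of 35 single-gene differences 22 crossed 0 in no alternative run. The 35 include the named genes of the pathway lists, which were chosen by their p in model against control and crossed 0 in none. All 13 differences that crossed 0 were those of members. Some crossings follow a shift of all probe sets: their median was -0.40 in model against control and -0.36 in drug against control with no normalization, and -0.07 in both with median centring. With no normalization, model against control was -0.21 for Myd88, -0.24 for Nfkb1, -0.40 for Nfkbia and -0.10 for Tnfaip3, drug against control was -0.30 for Myd88, -0.30 for Nfkb1 and -0.21 for Nfkbia, and drug against model was 0.09 for Cd14. With median centring Nfkbia was -0.07 in model against control, Cd14 0.05 in drug against model, and Myd88 -0.01 and Nfkb1 -0.02 in drug against control. With a trimmed mean Tnfaip3 was -0.02 in drug against model. The Gapdh term turned Nfkb2 to -0.17 in model against control and Tnfaip3 to -0.27 in drug against model. Without control 1 and drug 1, Tnfaip3 was -0.13 in drug against model, and Ly96 -0.04 and Nfkb1 -0.06 in drug against control. Without control 2 and drug 3, Tnfaip3 was -0.03 in model against control. With single arrays left out, Tnfaip3 ran from -0.34 to 0.73 in model against control and from -0.46 to 0.61 in drug against model, Cd14 from -0.32 to 0.28 and Nfkbia from -0.02 to 0.16 in drug against model, and Nfkb1 from -0.04 to 0.07 and Nfkb2 from -0.67 to 0.11 in drug against control. The causes were not tested. Signals near background limit Tlr2, Tlr4 and Ly96.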
